A study of Rattus norvegicus with 12 samples.

Results

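The genes described here are 10 genes of voltage-gated ion channels. Scn1a, Scn2a, Scn8a and Scn9a encode sodium channel pores, Cacna1a, Cacna1b, Cacna1c, Cacna1d and Cacna1g encode calcium channel pores, and Cacna2d1 encodes an auxiliary calcium channel subunit. They were picked by gene symbol from a table of 23526 genes. Each had 1 entry (Scn1a, Scn2a, Scn9a and Cacna1b on chromosome 3, Cacna1c and Cacna2d1 on chromosome 4, and Scn8a, Cacna1g, Cacna1d and Cacna1a on chromosomes 7, 10, 16 and 19), and all 10 were among the 18714 genes that passed the filter on low counts. RNA-seq was run on 12 samples of rat lumbar spinal cord (segments L3-5), with 3 samples in each of 4 groups: sham at day 0, and SCI (spinal cord injury) at day 3, day 7 and day 14. Strain, sex and age, the level and kind of the injury, and whether each sample was 1 animal, are not stated in the labels. The p-values therefore measure the spread between these samples only. Sham tissue was taken at day 0 alone, so time after surgery and injury cannot be told apart. Library totals ran from 63010295 to 79072710 counts, and the smallest count of any of the 10 genes in any library was 205.

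Sodium channel pores open when a neuron is depolarised and carry the rising phase of the action potential, and calcium channel pores let in the calcium that releases transmitter, shapes firing and drives gene expression. In the spinal cord, Scn1a, Scn2a and Scn8a serve central neurons and their axons, while Scn9a is best known from the small sensory neurons of the dorsal root ganglia, which lie beside the cord. Cacna1a (P/Q-type) and Cacna1b (N-type) sit at nerve terminals, Cacna1d and Cacna1c are L-type channels, of which Cacna1c is also a main channel of smooth muscle, Cacna1g is a low-threshold T-type channel, and Cacna2d1 brings channels to the membrane and is bound by gabapentin.

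RefSeq promoter windows (GRCr8) were found for 8 of the 10 genes, all but Scn1a and Cacna1g. The 250 bases before the start of Scn8a, Cacna1d, Scn9a and Cacna1c are printed 5′ to 3′ on the strand of the gene. Scn8a and Cacna1d lay below all sham libraries in each SCI day 3 library, and Scn9a and Cacna1c did not. Capitals mark GC boxes (GGGCGG on either strand, overlaps included).
Scn8a, chr7:133860977-133861226, plus strand: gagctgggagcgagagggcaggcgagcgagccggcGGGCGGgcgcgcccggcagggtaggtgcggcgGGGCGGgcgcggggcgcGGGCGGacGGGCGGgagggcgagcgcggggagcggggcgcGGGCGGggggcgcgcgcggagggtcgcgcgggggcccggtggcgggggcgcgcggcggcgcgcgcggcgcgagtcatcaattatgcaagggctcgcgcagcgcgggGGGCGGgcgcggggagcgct
Cacna1d, chr16:5527550-5527799, minus strand: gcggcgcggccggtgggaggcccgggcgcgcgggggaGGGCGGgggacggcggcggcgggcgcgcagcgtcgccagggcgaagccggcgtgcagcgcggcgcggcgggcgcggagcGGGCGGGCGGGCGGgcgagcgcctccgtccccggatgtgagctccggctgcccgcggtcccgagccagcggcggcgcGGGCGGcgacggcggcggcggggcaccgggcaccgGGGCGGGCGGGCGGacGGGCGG
Scn9a, chr3:71701378-71701627, minus strand: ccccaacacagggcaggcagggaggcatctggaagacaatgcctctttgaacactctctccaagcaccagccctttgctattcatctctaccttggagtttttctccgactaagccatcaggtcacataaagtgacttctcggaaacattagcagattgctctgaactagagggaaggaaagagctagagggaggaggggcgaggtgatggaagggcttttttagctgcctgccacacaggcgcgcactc
Cacna1c, chr4:154051749-154051998, minus strand: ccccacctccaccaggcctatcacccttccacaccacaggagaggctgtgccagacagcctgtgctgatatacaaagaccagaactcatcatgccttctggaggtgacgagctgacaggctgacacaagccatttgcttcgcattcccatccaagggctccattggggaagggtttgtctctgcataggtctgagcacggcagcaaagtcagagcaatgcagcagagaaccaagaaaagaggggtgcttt
Scn8a held 6 GC boxes in 86.0% G and C, and Cacna1d held 9 in 88.8% G and C. Scn9a and Cacna1c held none, with 52.4% and 54.4% G and C, near the median of 51.2% over 33469 rat promoter windows. A GC box occurred in 5 of the 8 genes, including Cacna1a, Cacna1b and Cacna2d1, and in 30.5% of all windows. Scn2a, with 39.6% G and C, also had none, and it too lay below all sham libraries at SCI day 3. A link between promoter and level was not tested. An AP-1 site (TGANTCA, 6.34% of all windows) and the left arm of the RE1 element (TTCAGCACC, 0.305% of all windows) were looked for on both strands and occurred in none of the 8. RefSeq lists 3 starts for Cacna2d1, and any further start of the other genes was not examined.

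Several libraries stood apart from their groups. SCI day 3 replicates 1 and 3 held few neuronal transcripts: the summed level of 14 neuronal markers was 678 and 606 CPM (counts scaled to library size, with TMM) in them and 7527 CPM in SCI day 3 replicate 2, against 7319 to 10060 CPM in sham. None of the 14 markers was at 0 in any library. Mitochondrial counts made up 5.62 and 5.44% of replicates 1 and 3, against 6.47 to 10.8% of the other 10 libraries. The 11 markers of dorsal root ganglion neurons summed to 201 CPM in SCI day 3 replicate 2 and to 448 and 791 CPM in SCI day 14 replicates 1 and 2, against 14.6 to 75.7 CPM in the other 9 libraries. Schwann cell markers, 8 genes, summed to 11740 to 48890 CPM at SCI day 3, 1792 to 16110 CPM at day 7 and 12010 to 23100 CPM at day 14, against 5114 to 40350 CPM in sham. Of the other marker lists, 4 of 8 astrocyte and 2 of 8 oligodendrocyte markers passed the test lower at day 3 against sham, and 4 of 6 endothelial and 3 of 8 vascular smooth muscle and pericyte markers passed higher. Of the oligodendrocyte progenitor markers 1 of 6 passed lower. Over all genes tested, 1.2% passed lower and 5.5% higher. In edgeR 0 of 8 Schwann cell, 0 of 8 microglia and macrophage, 0 of 11 ganglion neuron, 0 of 7 skeletal muscle and 0 of 3 erythrocyte markers passed at day 3, with 3, 5, 4, 0 and 0 of them at an unadjusted p below 0.05. Such a p was reached by 35.3% of all genes. DESeq2 called 3, 4, 4, 0 and 0 of these lists, where it called 27.5% of all genes. Limma voom called 1, 1, 0, 0 and 0, where it called 33.3%. In bulk tissue, fewer cells of a type and less RNA per cell cannot be told apart.

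Scn1a had the highest mean level of the 10 per length in sham cord. It stood there at 36.2 ± 5.13 FPKM (a level per length of transcript and per library size, SD, n = 3), Scn8a at 18.3 ± 3.34 and Cacna1a at 10.99 ± 0.723. Cacna1g followed at 9.26 ± 1.21, Scn2a at 7.70 ± 1.64 and Cacna1b at 7.27 ± 1.48 FPKM. The lower levels were Cacna2d1 at 4.90 ± 0.954, Cacna1d at 3.88 ± 0.533, Cacna1c at 3.07 ± 1.42 and Scn9a at 1.53 ± 0.351 FPKM. The ranges of 1 SD around the means did not overlap between Scn1a and Scn8a or between Scn8a and Cacna1a, and they overlapped in the other 7 of the 9 neighbouring pairs of this order. At SCI day 3 the order was Scn1a (10.5 ± 15.5), Cacna1c (10.3 ± 7.48) and Cacna1a (5.17 ± 3.90 FPKM), and all 9 neighbouring pairs overlapped. In day 3 replicates 1 and 3 Scn1a was at 1.19 and 1.89 FPKM and Cacna1c at 7.05 and 18.8 FPKM, and in CPM per kilobase the day 3 mean of Cacna1c (10.4) was above that of Scn1a (10.29). At day 7, 8 of 9 pairs did so, with Scn1a (24.1 ± 5.70 FPKM) alone standing clear, and at day 14 all 9 did.

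The make-up of each channel pool differed between libraries. Scn1a held 18.2, 56.8 and 36.6% of the summed FPKM of the 4 sodium channel genes in SCI day 3 replicates 1, 2 and 3, against 55.0 to 58.3% in sham. Scn9a held 24.7, 7.23 and 31.5% of it at day 3, against 1.75 to 3.07% in sham, in a pool that summed to 6.56, 49.8 and 5.15 FPKM at day 3, against 52.9 to 72.7 FPKM in sham. The high Scn9a shares of replicates 1 and 3 thus stood in small pools, since its own level there, 1.62 FPKM in both, was inside the sham range of 1.14 to 1.83 FPKM. Among the 5 calcium channel pores, Cacna1c held 44.1, 17.1 and 81.4% at day 3, against 5.91 to 14.7% in sham. Cacna1a held 20.0, 33.2 and 11.5% of that pool at day 3, against 30.4 to 33.5% in sham. At day 14 replicate 2 the Scn9a share was 28.8% of the sodium pool and the Cacna1g share 8.99% of the calcium pool, against 24.9 to 27.8% for Cacna1g in sham.

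**Figure D1:**
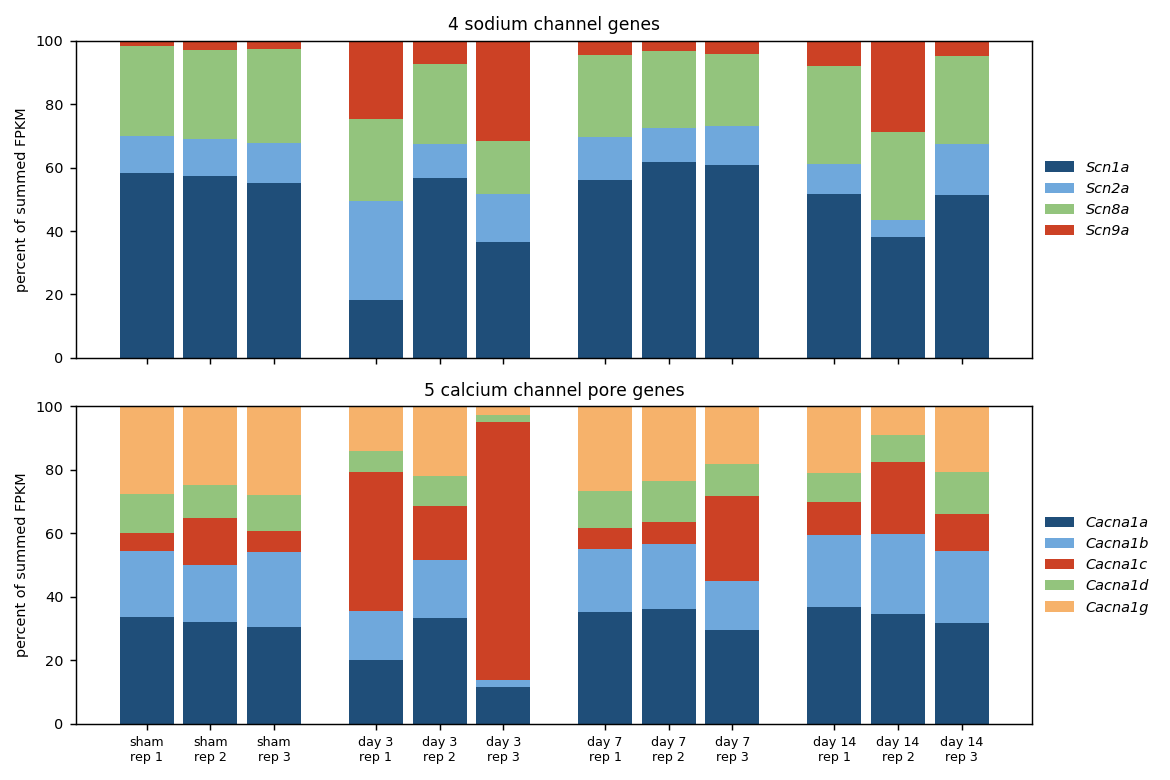
Percent of the summed FPKM of the 4 sodium channel genes (upper bars) and of the 5 calcium channel pore genes (lower bars) in each of the 12 libraries, 1 bar per library. Scn9a reached 31.5% of the sodium pool and Cacna1c 81.4% of the calcium pool in SCI day 3 replicate 3, against at most 3.07% and 14.7% in sham.

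At SCI day 3, 8 of the 10 genes had their 3 libraries below all 3 sham libraries, Cacna1c had them above, and Scn9a overlapped with sham. Over all genes tested, 18.3% were separated lower and 19% higher in the same way. None of the 10 passed edgeR's quasi-likelihood test at an adjusted p of 0.05, where 6.7% of all tested genes did (5.5% higher, 1.2% lower). Their adjusted p-values ran from 0.0863 to 0.484. An unadjusted p below 0.05 was reached by 8 of the 10 (7 lower and Cacna1c higher), against 35.3% of all genes (14.6% lower, 20.6% higher). The median log2 fold change of the 10 was -1.47, beside 0.03 over all genes tested and -1.67 over the 14 neuronal markers, of which all 14 were negative and 0 passed in edgeR (5 at an unadjusted p below 0.05). DESeq2 called 3 of those markers, where it called 27.5% of all genes, and limma voom 14, where it called 33.3%.

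Scn1a, a main pore of fast-spiking neurons, measured 10.1, 242 and 17.1 CPM in SCI day 3 replicates 1, 2 and 3, against 349, 265 and 355 CPM in sham. All 3 day 3 libraries were below sham, replicate 2 just below and the other 2 far below. The log2 fold change was -1.84 ± 0.96 (SE, adjusted p = 0.19). Scn8a, the sodium channel of nodes of Ranvier and axon initial segments, measured 11.3, 85.5 and 6.23 CPM at day 3, against 135, 103 and 152 CPM in sham. It had the most negative log2 fold change of the 10, at -1.92 ± 0.81 (SE, adjusted p = 0.124). Scn2a, a channel of early axons and unmyelinated fibres, measured 18.0, 47.6 and 7.32 CPM at day 3, against 72.4, 55.2 and 86.2 CPM in sham, with replicate 3 the lowest. Its log2 fold change was -1.55 ± 0.67 (SE, adjusted p = 0.128). Scn9a measured 16.3, 36.9 and 17.6 CPM at day 3, against 12.5, 16.9 and 19.4 CPM in sham. Only replicate 2, the day 3 library with ganglion transcripts, lay above the sham range, and the log2 fold change was 0.54 ± 0.53 (SE, adjusted p = 0.484).

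Among the calcium channel pores, Cacna1d had the smallest adjusted p of the 10. It measured 8.75, 23.5 and 4.91 CPM at day 3, against 38.4, 28.9 and 37.9 CPM in sham, and the log2 fold change was -1.50 ± 0.53 (SE, adjusted p = 0.0863). Its day 3 and sham libraries did not overlap, and replicates 1 and 3 were again the low ones. Cacna1a, the P/Q-type pore, measured 33.6, 103 and 29.9 CPM at day 3, against 132, 111 and 125 CPM in sham, a log2 fold change of -1.14 (adjusted p = 0.108). Cacna1b, the N-type pore, measured 24.6, 54.7 and 5.46 CPM at day 3, against 77.8, 60.1 and 92.2 CPM in sham. Its replicates 1 and 3 differed from each other more than those of Cacna1a did. Cacna1g, the T-type pore, measured 19.2, 55.5 and 5.57 CPM at day 3, against 88.2, 69.9 and 92.3 CPM in sham, and Cacna2d1 measured 8.85, 15.4 and 2.87 CPM, against 18.3, 17.1 and 24.2 CPM in sham. Cacna1b (-1.44), Cacna1g (-1.64) and Cacna2d1 (-1.13) had adjusted p-values of 0.125, 0.139 and 0.139 for their log2 fold changes.

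**Figure D2:**
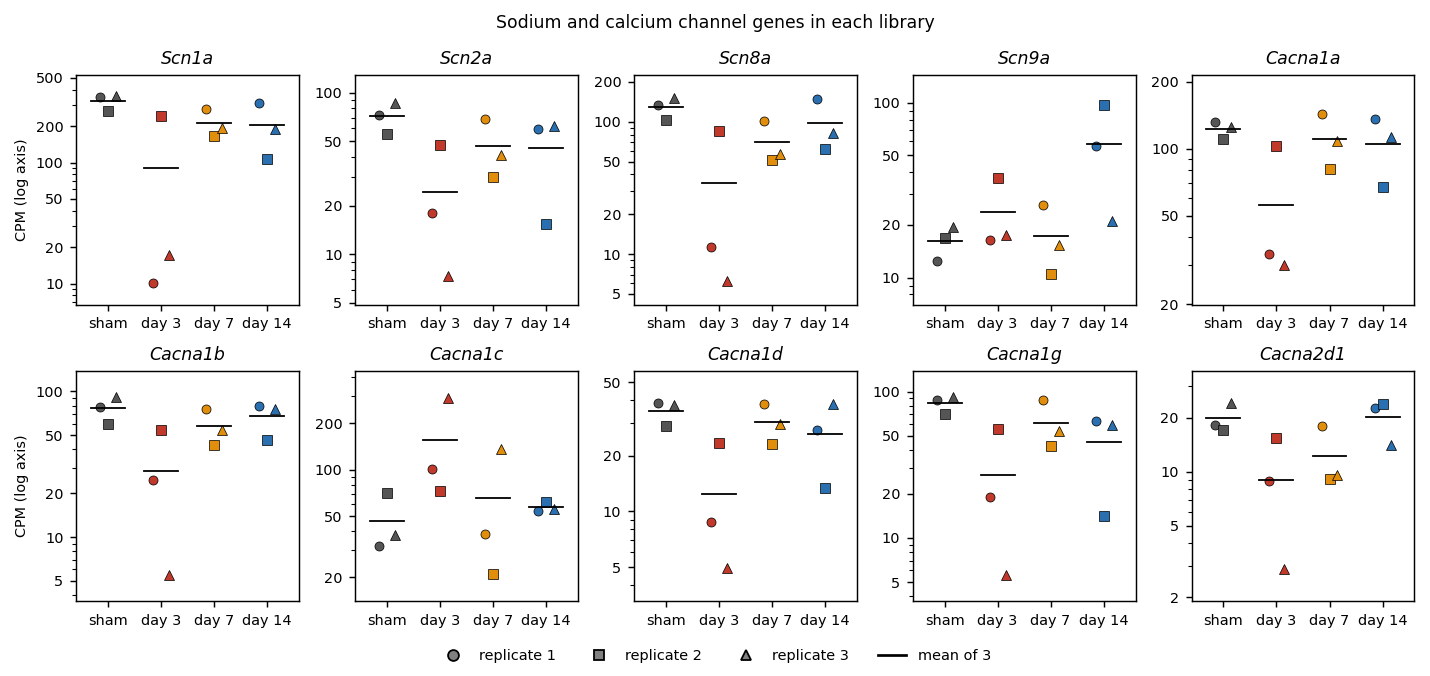
CPM of each of the 10 channel genes (log axis) in sham and at SCI day 3, 7 and 14, with 1 point per library shaped by replicate number and a line at the mean of 3. Replicates 1 and 3 of day 3 are the lowest points for 8 genes in their group, as for Scn1a at 10.1 and 17.1 CPM, while Cacna1c is highest at 292 CPM in day 3 replicate 3.

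How far these calls reach depended on the day 3 libraries and on the tool. Over all genes, the 1254 that edgeR called at day 3 became 1 to 7087 when 1 library was left out. DESeq2 called 4 of the 10 at day 3 (Scn8a, Cacna1a and Cacna1d lower, Cacna1c higher), where it called 27.5% of all genes, and limma voom with sample weights called the 8 lower ones, where it called 33.3%. Without SCI day 3 replicate 2, edgeR called 9 of the 10, all but Scn9a, where it called 37.1% of all genes, together with all 14 neuronal markers, and the log2 fold change of Scn1a was -4.57. With all 3 ganglion libraries left out it called the 8 lower genes, where it called 34.7% of all genes. Without replicates 1 and 3 instead, the single remaining day 3 library, assumed to vary like the other groups, gave log2 fold changes of -0.60 to -0.24 for the 8 genes, and 0 of the 10 passed, where 0.00508% of all genes did. With 4 groups together, 0 of the 10 passed in edgeR, where 0.0427% of all genes did, and Scn9a alone had an unadjusted p below 0.05 (adjusted p = 0.179), where 19.5% of all genes had one. DESeq2 called Scn9a (adjusted p = 0.0132), where it called 14.1% of all genes, and limma voom called Scn1a, Scn8a, Cacna1a and Cacna1b, where it called 16.7%.

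The values of the 8 lower genes were set beside those of the neuronal markers. The median log2 difference of the 14 markers from the sham mean was -3.35, -0.36 and -3.87 in SCI day 3 replicates 1, 2 and 3. Scn1a was at -4.99, -0.40 and -4.22 and Scn8a at -3.50, -0.58 and -4.36 in the same libraries, below that median in each. Cacna1a was at -1.86, -0.24 and -2.03, and Cacna1d at -1.99, -0.57 and -2.82, less far down than the median in replicates 1 and 3. Cacna2d1 lay 2.20 above the marker median in replicate 1 and 1.10 above it in replicate 3 on the log2 scale, and Cacna1b 1.73 above it in replicate 1 and 0.08 in replicate 3. In replicate 1, Scn8a was the only one of the 8 within 1 of the median on the log2 scale, Scn1a lay 1.64 below it and the other 6 lay 1.24 to 2.20 above it. Cacna2d1 (-1.15) and Cacna1b (-1.62) were there outside the whole range of the 14 markers, -5.15 to -1.85. With the neuronal marker level as a covariate, the log2 fold changes of the 8 genes at day 3 ran from -0.16 to 0.14, 3 of them turned positive, and 0 of the 10 passed, where 0.0107% of all genes did. The covariate itself differs between day 3 and sham, so this fit does not separate it from the day.

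**Figure D3:**
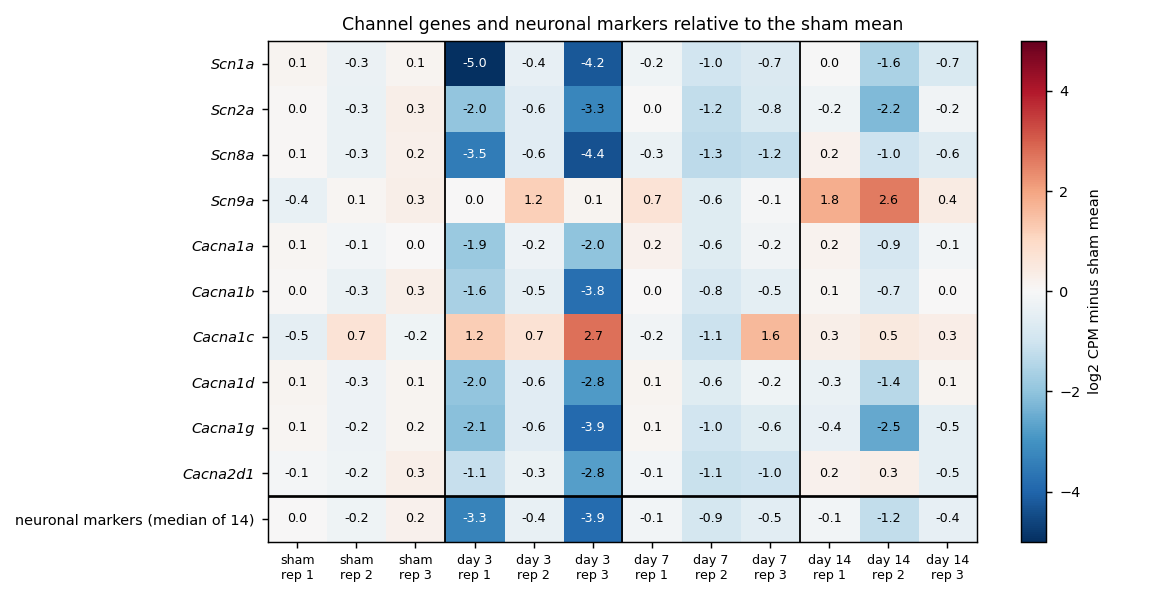
Log2 CPM of each channel gene minus its sham mean in each of the 12 libraries, with the median of 14 neuronal markers in the lowest row. In SCI day 3 replicates 1 and 3 the markers stand at -3.35 and -3.87 and 8 channel genes are also negative, whereas Cacna1c is positive and Scn9a is close to 0.

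Cacna1c stood on the other side of sham. It measured 102, 73.0 and 292 CPM at SCI day 3, against 31.9, 70.1 and 37.5 CPM in sham, and replicate 2 of day 3 exceeded the highest sham library by little. Its log2 fold change was 1.74 ± 0.69 (SE, adjusted p = 0.107). At day 7 it measured 38.5, 21.1 and 136 CPM and at day 14 54.1, 61.3 and 55.6 CPM, both overlapping with sham. Schwann cell markers were uneven over the libraries in a like way: their sums were 11740, 25690 and 48890 CPM at day 3 replicates 1, 2 and 3, and 5670, 1792 and 16110 CPM at day 7, against 5114, 40350 and 6476 CPM in sham. Day 3 replicate 3 was the highest library and day 7 replicate 2 the lowest for both the gene and the list, and sham replicate 2 was the highest of sham for both. The order was not the same throughout, since day 3 replicate 1 had more Cacna1c than sham replicate 2 with a smaller marker sum. The vascular smooth muscle and pericyte markers, 8 genes, summed to 742, 389 and 442 CPM at day 3, against 190.1 to 274 CPM in sham, with none at 0. The part of these cells in the Cacna1c values was not tested.

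At SCI day 7, 0 of the 10 genes passed in edgeR, with DESeq2 or with limma voom, and 0 of the 10 had an unadjusted edgeR p below 0.05, where 0.016% of all genes passed edgeR, 2.74% DESeq2 and 1.47% limma voom, and 9.89% had such a p. The log2 fold changes ran from -0.89 to 0.48 with a median of -0.42, beside -0.02 over all genes. Scn8a was the one gene whose libraries did not overlap with sham, at 102, 51.0 and 56.8 CPM in day 7 replicates 1, 2 and 3, against 135, 103 and 152 CPM in sham (log2 fold change -0.89 ± 0.79, SE, adjusted p = 0.762). Groups separated in this way, lower, in 10.8% of all genes tested. Replicate 1 of day 7 was close to sham for Scn8a and replicates 2 and 3 were lower, as were their neuronal markers, at a median of -0.88 and -0.52 on the log2 scale against -0.14 in replicate 1. Cacna2d1 measured 17.9, 9.06 and 9.55 CPM at day 7, against 18.3, 17.1 and 24.2 CPM in sham, with the same 2 libraries low and an adjusted p of 0.700.

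The other pores lay closer to sham at day 7 than at day 3, with overlapping libraries in each case. Scn1a measured 275, 164 and 191 CPM in day 7 replicates 1, 2 and 3, against 349, 265 and 355 CPM in sham (log2 fold change -0.62 ± 0.93, SE, adjusted p = 0.860). Cacna1a measured 144, 80.6 and 108 CPM at day 7, against 132, 111 and 125 CPM in sham, with replicate 1 above every sham library and replicate 2 the lowest. Cacna1d measured 38.3, 23.1 and 29.6 CPM at day 7, against 38.4, 28.9 and 37.9 CPM in sham. In each of these genes replicate 2 was the lowest day 7 library, and it was also the day 7 library with the lowest neuronal marker median. The 95% intervals of the log2 fold changes at day 7 were wide, from -2.69 to 1.45 for Scn1a and from -1.13 to 0.84 for Cacna1a.

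At SCI day 14, 0 of the 10 passed in edgeR, where 0.016% of all genes did, and 0 passed with DESeq2 or limma voom, where 1.11% and 0.0481% did. The median log2 fold change was -0.31, beside 0.01 over all genes, and 1 gene, Scn9a, had an unadjusted p below 0.05, against 7.4% of all genes. Scn9a measured 56.8, 96.5 and 21.2 CPM at day 14, against 12.5, 16.9 and 19.4 CPM in sham, so all 3 day 14 libraries were above sham, replicate 3 just above. The log2 fold change was 1.84 ± 0.54 (SE, adjusted p = 0.592), and DESeq2 gave an adjusted p of 0.0618. Groups separated higher in 9.37% of all genes tested. Day 14 replicates 1 and 2, the high ones, were those with ganglion transcripts: Scn10a, a sodium channel of small sensory neurons, measured 79.6, 131 and 0.184 CPM in day 14 replicates 1, 2 and 3, against 0.162 to 0.484 CPM in sham. Scn11a, another such channel, measured 45.2, 81.2 and 0.154 CPM at day 14, against 0.130, 0 and 0.250 CPM in sham. With the 3 ganglion libraries left out, the Scn9a log2 fold change at day 14 was 0.38 from the single remaining library, assumed to vary like the other groups, with an adjusted p of 0.951. In that library, day 14 replicate 3, 3 of the 11 ganglion markers (Mrgprd, Tmem233 and Prdm12) were at 0.

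**Figure D4:**
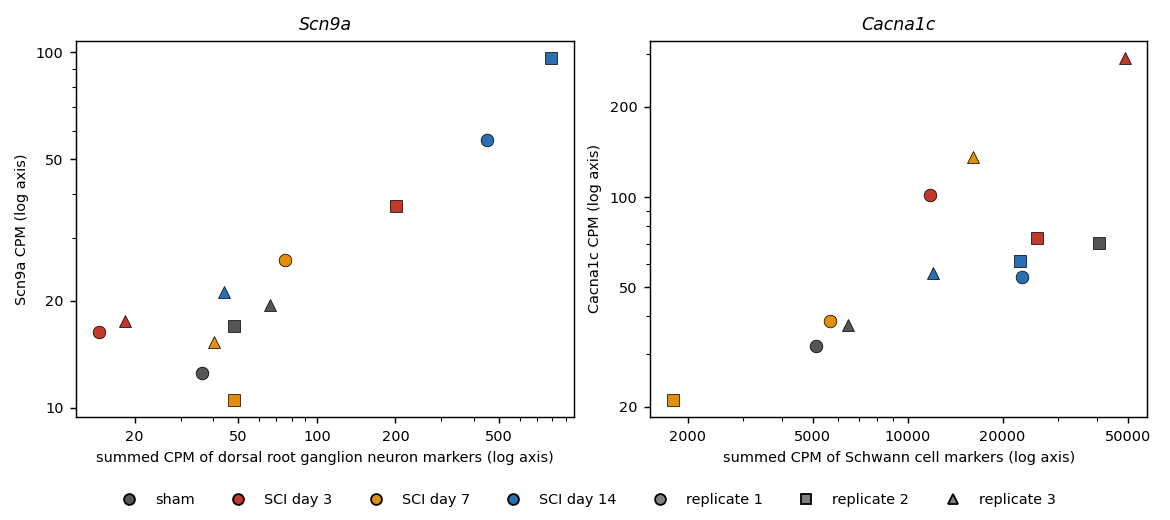
CPM of Scn9a against the summed CPM of 11 dorsal root ganglion neuron markers (left) and CPM of Cacna1c against the summed CPM of 8 Schwann cell markers (right), with log axes and 1 point per library coloured by group and shaped by replicate number. SCI day 14 replicates 1 and 2 stand highest for Scn9a, at 448 and 791 CPM of ganglion markers, and SCI day 3 replicate 3 stands highest for Cacna1c, at 48890 CPM of Schwann cell markers.

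Other channel genes were uneven over the same day 14 libraries. Scn1a measured 313, 107 and 190.4 CPM in day 14 replicates 1, 2 and 3, against 349, 265 and 355 CPM in sham, and Scn8a measured 149.8, 62.1 and 81.8 CPM, against 135, 103 and 152 CPM in sham. Both overlapped with sham through replicate 1, and replicate 2 was the lowest. Cacna2d1 measured 22.7 and 23.9 CPM in replicates 1 and 2 and 14.0 CPM in replicate 3 of day 14, against 17.1 to 24.2 CPM in sham. Its log2 fold change of 0.03 over all 3 was -0.50 without the ganglion libraries, and neither value passed. Cacna1g measured 62.6, 14.2 and 59.1 CPM at day 14, against 88.2, 69.9 and 92.3 CPM in sham, so the groups did not overlap, as lower in 6.28% of all genes (log2 fold change -0.88 ± 0.72, SE, adjusted p = 0.884). Day 14 replicate 2 was far the lowest for Cacna1g, and also for Scn2a, at 15.3 CPM, against 55.2 to 86.2 CPM in sham. In that library the chloride extruder Slc12a5, one of the 14 neuronal markers, measured 94.7 CPM, against 457 to 609 CPM in sham. The neurofilament gene Nefm, another of these markers, measured 3126 CPM, against 2374 to 3370 CPM in sham. Cacna1g and Slc12a5 thus stood at -2.54 and -2.47 on the log2 scale from the sham mean there, and Nefm at 0.09. The median of the 14 neuronal markers in that library was -1.24, from -2.86 to 0.52, with Rbfox3 at -1.41 and Snap25 at -1.39. Slc32a1 (-2.86) and Slc6a5 (-2.47) were as far down as Slc12a5 or further, whereas Chat (0.07) and Stmn2 (0.52) were not below the sham mean.

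**Figure D5:**
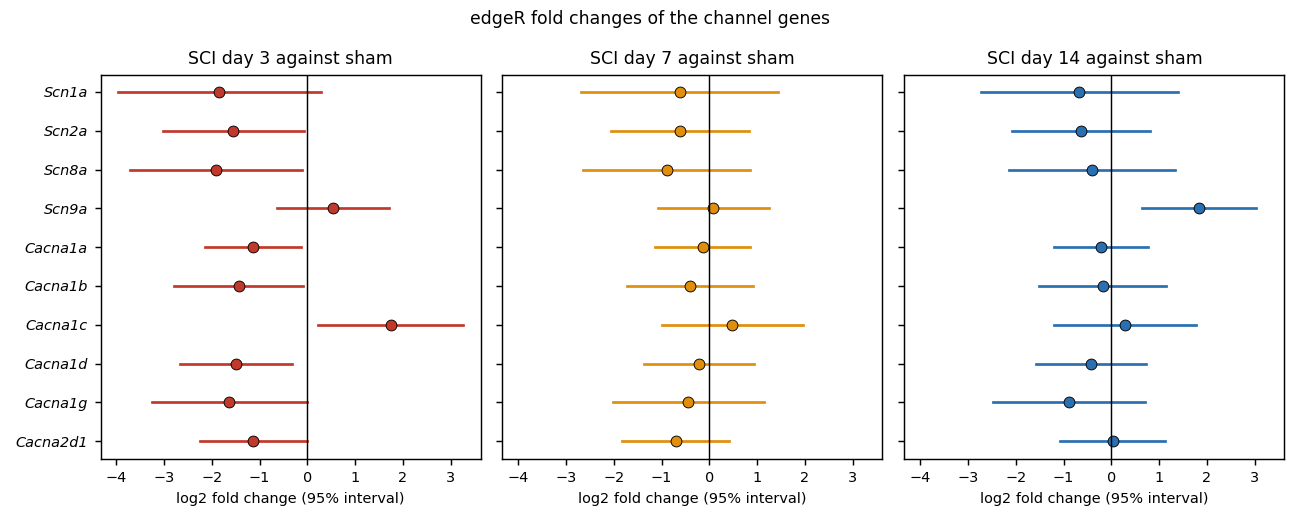
Log2 fold changes of the 10 channel genes at SCI day 3, 7 and 14 against sham from edgeR (points) with 95% intervals (lines), with negative values meaning lower after SCI. The 8 negative values at day 3 run from -1.92 to -1.13, and the intervals of all 10 genes at day 7 include 0.

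Between SCI days, 0 of the 10 genes and 0% of all genes passed in edgeR in the 3 comparisons. Without SCI day 3 replicate 2, edgeR called 6 of the 10 at day 7 against day 3, where it called 18.9% of all genes, and 6 of the 10 at day 14 against day 3, where it called 22.8%. An unadjusted p below 0.05 was reached at day 7 against day 3 by Cacna1d (log2 fold change 1.29, adjusted p = 0.326), where 14.8% of all genes had one. At day 14 against day 3 it was reached by 2 genes, where 17.9% of all genes had one, Scn9a (log2 fold change 1.30, adjusted p = 0.25) and Cacna2d1 (1.16, adjusted p = 0.268). At day 14 against day 7 it was reached by Scn9a (log2 fold change 1.75, adjusted p = 1), where 3.67% of all genes had one. DESeq2 called 0 of the 10 in each of these comparisons, where it called 1.31%, 5.86% and 0.267% of all genes. Limma voom also called 0 of the 10, where it called 0.00534% of all genes at day 7 against day 3 and 0% in the other 2. The 3 comparisons with sham share the sham libraries.

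Genes that build such channels, are named for them or work with them were called in numbers that differed by tool. Of 11 other sodium channel genes, 0 passed against sham on any day in edgeR, where 6.7% of all genes passed at day 3. Their median log2 fold change at day 3 was -0.94. Nalcn, the sodium leak channel, measured 24.4, 76.0 and 21.7 CPM at day 3, against 94.9, 84.6 and 106 CPM in sham. Its log2 fold change was -1.23 (adjusted p = 0.0846). Scn11a had a log2 fold change of 5.15 (adjusted p = 0.101). It measured 0.548, 12.35 and 0.686 CPM in day 3 replicates 1, 2 and 3, against 0.130, 0 and 0.250 CPM in sham. Replicate 2 is the day 3 library with ganglion transcripts. Of 19 other genes tested that are named for calcium channels, 0 passed on any day, with a day 3 median of -1.35 and 17 of 19 values negative. The Cacng genes are among them by name, and whether their products serve calcium channels was not tested. The smallest p-values at day 3 were those of the beta subunits Cacnb4 (-1.63, adjusted p = 0.0691) and Cacnb1 (-1.02, adjusted p = 0.0697). At an unadjusted p below 0.05 stood 3 of the 11 and 8 of the 19 at day 3, 0 and 0 at day 7, and 2 (Scn10a and Scn11a) and 0 at day 14. Over all genes, 35.3% had such a p at day 3, 9.89% at day 7 and 7.4% at day 14. At day 3 DESeq2 called 3 of the 11 (Nalcn lower, Scn10a and Scn11a higher) and 7 of the 19, all lower. Over all genes it called 27.5%. Limma voom called 4 of the 11, all lower, and of the 19, 12 lower and Cacna1s higher. Over all genes it called 33.3%. At day 14 DESeq2 called Scn10a and Scn11a, and limma voom 0, where they called 1.11% and 0.0481% of all genes. Without SCI day 3 replicate 2, edgeR called 5 of the 11 and 12 of the 19 at day 3, all lower. Over all genes it called 37.1% there.

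Of 14 genes whose products bind or traffic sodium channels, 1 passed at day 3, where 5.5% of all genes passed higher. S100a10, which carries the sensory sodium channel Scn10a to the membrane, rose to 162, 107 and 189 CPM at day 3, against 21.2, 68.5 and 25.7 CPM in sham (log2 fold change 1.99, adjusted p = 0.0398). All 3 day 3 libraries were above sham, with sham replicate 2 the highest of its group. Ank3, the ankyrin that anchors channels at the axon initial segment, did not pass (-0.82, adjusted p = 0.0579). Of 14 calcium channel partners, 3 passed at day 3, all higher. Gem, a small GTPase that restrains calcium channels, rose to 26.2, 18.6 and 44.1 CPM, against 8.16, 7.64 and 7.78 CPM in sham (1.91, adjusted p = 0.0332). Thbs2 rose to 568, 76.0 and 340.3 CPM, against 20.1, 28.9 and 20.8 CPM in sham (3.82, adjusted p = 0.0324), and Thbs1 to 264, 85.3 and 420.4 CPM, against 12.4, 22.6 and 9.81 CPM in sham (4.10, adjusted p = 0.0358). Thrombospondins are secreted matrix proteins that bind the protein made from Cacna2d1. For these 4 genes replicate 2 was the lowest day 3 library. DESeq2 and limma voom called the same 4 higher at day 3, as did edgeR without replicate 2 or without the ganglion libraries, and 0 of them passed from replicate 2 alone. At day 3, DESeq2 called 27.5% of all genes and limma voom 33.3%. EdgeR called 37.1% of all genes without replicate 2 and 34.7% without the ganglion libraries. The edgeR counts of 1 and 3 did not hold when 1 library was left out: they ran from 0 to 10 for the sodium and from 0 to 10 for the calcium channel partners. All 4 calls were lost without sham replicate 1 or 3, SCI day 3 replicate 1 or 3, day 7 replicate 2 or day 14 replicate 3. Those of Gem and Thbs1 were also lost without sham replicate 2, and that of S100a10 without day 7 replicate 3 or day 14 replicate 1. Over the 12 fits their adjusted p-values reached 0.165 at most and their log2 fold changes stayed positive, at least 1.70 for S100a10, 1.51 for Gem, 3.16 for Thbs2 and 3.54 for Thbs1. At day 7 and day 14, 0 of the 14 sodium channel partners (1 and 0 at an unadjusted p below 0.05) and 0 of the 14 calcium channel partners (3 on each day) passed in edgeR. Over all genes, 9.89% had such a p at day 7 and 7.4% at day 14. At day 7 Thbs2 (3.51, adjusted p = 0.186) and at day 14 Thbs1 (3.21, adjusted p = 0.511) had the smallest p-values of the calcium channel partners. DESeq2 called Thbs1 and Thbs2 on both days, where it called 2.74% of all genes at day 7 and 1.11% at day 14. Limma voom called Thbs2 at day 7, where it called 1.47% of all genes.

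Among other tested genes with a full symbol, Pcsk2, Madd, Cntn3, Unc80 and Disp2 had log2 CPM profiles most like the mean profile of the 10. Over the 12 libraries their Pearson's r was 0.995 to 0.991. Pcsk2 measured 7.995, 40.5 and 3.75 CPM at day 3, against 51.7, 45.9 and 64.5 CPM in sham, the same pattern of 2 low day 3 libraries. The 12 points share those libraries and their neuronal content, so the values of r are descriptions only. The closest gene to Scn8a was Dpp6 and to Scn2a the glutamate receptor gene Gria1. For the calcium channels they were Ptprs (Cacna1a), Crmp1 (Cacna1b), Agrn (Cacna1d), Unc13c (Cacna1g) and Tmem74 (Cacna2d1), each with r of at least 0.981. Scn9a and Cacna1c had other neighbours: Wfs1 for Scn9a (r = 0.946), at 36.95, 41.9 and 29.2 CPM at day 14, against 27.1, 25.8 and 28.2 CPM in sham, and Il34 for Cacna1c (r = 0.976), at 43.9, 24.8 and 95.5 CPM at day 3, against 14.0, 36.4 and 18.0 CPM in sham.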

How the data were processed

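RNA-seq values of 12 rat lumbar cord samples were used, in 4 groups of 3. Per the file headers, the authors' table gives read counts by gene, not normalized, beside FPKM values (scaled by the authors for gene length and library total). No aligner, counter or strand setting is given in the sources used here, so genes with overlapping or antisense neighbours or close paralogs are uncertain. The submitters' processing notes list the mouse builds GRCm38 and mm10, while the identifiers are rat Ensembl ones. FPKM followed the counts within 0.837% over 9502 genes with over 500 counts in every library. The closest pair of libraries differed by a chi-square of 60.3 per gene, so none was a copy.

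Counts were filtered by edgeR's filterByExpr (18714 genes kept, 4812 removed), scaled by TMM and fitted with the quasi-likelihood test over all 12 libraries (edgeR 4.0.16, R 4.3.3), with Benjamini-Hochberg adjustment over all tested genes and a limit of 0.05. The median residual degrees of freedom of the 10 genes, prior included, were 10.5. The biological coefficient of variation was 0.432. Log2 CPM used a prior count of 2. DESeq2 1.42.0, limma 3.58.1 (voom with sample weights), other scalings and filters, a replicate block, a neuronal covariate and left-out libraries were alternatives. The fit was also tested on simulated data.

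The 10 genes and the lists of channel genes, partners and markers were chosen with earlier results of these data known. From the 4 lists of channel genes and partners, genes were named where they passed (up to 5), and otherwise up to 2 with the smallest p. Ank3 was named after its values were seen. The most similar genes were those with the highest Pearson's r among other tested genes, without blank or provisional symbols (such as LOC or RGD). The one for Scn1a is not reported here. Cacng1 was not tested, and Cldn5, Hba1 and Hbb had no matching symbol. Promoter sequences are RefSeq's, on GRCr8.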

Additional observations from a re-analysis of the deposited data

How the results depend on the processing

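Most values for the 10 genes kept their direction and their side of the limit: of 1380 refitted log2 fold changes in the 6 comparisons, 1276 did, 52 newly passed the test and 52 changed sign. In CPM per kilobase 40 of 40 mean levels lay within 1 SD of the FPKM value, and the order was the same in sham, day 7 and day 14, while Cacna1c and Scn1a changed places at day 3. The count of the 10 genes called was 0 in each comparison and became 4 with DESeq2, 8 with limma voom and 8 without the ganglion libraries at day 3 against sham. Without the ganglion libraries it was 6 at day 7 against day 3. It also changed there at day 14 against day 3, where a single day 14 library is left, so that count is not given. For the 8 genes other than Scn9a and Cacna1c, the log2 fold changes of that comparison ran from 1.253 to 3.805. The counts over all genes in that fit, of 19586 tested, are in the next paragraph. Over the 4 groups DESeq2 called 1 of the 10 and limma voom 4, where they called 14.1% and 16.7% of all genes. Leaving out 1 library at a time gave 0 to 9 of the 10 at day 3 against sham, 0 to 6 at day 7 and at day 14 against day 3, 0 to 5 over the 4 groups and 0 to 0 elsewhere, and it is day 3 replicate 2 whose removal gave 9.

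Over all genes, edgeR called 1254 at day 3, 3 at day 7 and 3 at day 14 against sham, 0 between days and 8 over the 4 groups. At day 3 the count was 5150 with DESeq2, 6232 with limma voom, 733 with no filter, 1 with only the groups compared, 2 with the neuronal covariate, 6787 without the ganglion libraries and 1 without the libraries with few neuronal transcripts. At day 7 it was 513 with DESeq2, 276 with limma voom, 89 with only the groups compared, 10 with the covariate and 8 without the ganglion libraries. At day 14 it was 207 with DESeq2, 9 with limma voom, 0 with only the groups compared and 1 without the libraries with few neuronal transcripts. At day 7 against day 3 it was 245 with DESeq2, 1 with limma voom and 3222 without the ganglion libraries. At day 14 against day 3 it was 1096 with DESeq2 and 2088 without the ganglion libraries, and at day 14 against day 7 it was 50 with DESeq2. Over the 4 groups it was 2645 with DESeq2, 3116 with limma voom, 2 with the covariate, 3785 without the ganglion libraries and 1 without the libraries with few neuronal transcripts. Leaving out 1 library at a time gave 1 to 7087 genes at day 3, 1 to 7 at day 7 and 1 to 3 at day 14 against sham, 0 to 3605 at day 7 and 0 to 4342 at day 14 against day 3, 0 to 0 at day 14 against day 7, and 0 to 4330 over the 4 groups. Causes were not tested.

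The replicate block called 8 genes at day 3, 1 at day 7 and 1 at day 14 against sham, 1 at day 7 against day 3 and 3 over the 4 groups, and 0 of the 10 channel genes in each comparison. Deviations of libraries of the same number correlated weakly, from -0.34 to 0.25. With 3 libraries a group, several of which stood apart, these values cannot show whether the numbers pair the samples, and the labels do not say.

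Signs changed as follows. With the neuronal covariate Scn2a (0.12), Cacna1a (0.061) and Cacna1g (0.14) changed sign at day 3, Cacna1a (0.12) and Cacna1d (0.10) at day 7, and Scn8a (0.15), Cacna1a (0.070) and Cacna1b (0.21) at day 14. With limma voom Scn9a at day 7 was -0.039 and Cacna2d1 at day 14 -0.15, and with the replicate block Cacna2d1 at day 14 was -0.088. Without the ganglion libraries Cacna1d (0.11) and Cacna2d1 (-0.50) changed sign at day 14, and Scn9a (0.039) at day 7 against day 3. Between days, the covariate gave -0.38 for Scn2a, -0.24 for Scn8a, -0.054 for Cacna1b, -0.18 for Cacna1g and -0.34 for Cacna2d1 at day 7 against day 3, and -0.42 for Scn2a and -0.66 for Cacna1g at day 14 against day 3. Without the libraries with few neuronal transcripts, Scn1a was -0.21, Scn2a -0.035, Scn8a -0.29 and Cacna2d1 -0.34 at day 7 against day 3, and Scn1a -0.26, Scn2a -0.064 and Cacna1g -0.30 at day 14 against day 3. At day 14 against day 7, limma voom gave 0.037 for Scn2a and 0.25 for Cacna1c, the replicate block 0.15 for Cacna1c, and the fit without the ganglion libraries 0.39 for Scn2a and 0.30 for Cacna1d. Leaving out 1 library at a time, the value against sham at day 7 ran from -0.34 to 0.34 for Scn9a, -0.37 to 0.042 for Cacna1a and -0.64 to 0.91 for Cacna1c. At day 14 it ran from -0.44 to 0.014 for Cacna1a, -0.33 to 0.017 for Cacna1b and -0.12 to 0.23 for Cacna2d1, and at day 7 against day 3 from -0.87 to 0.028 for Scn9a. At day 14 against day 7 it ran from -0.50 to 0.24 for Scn1a, -0.31 to 0.37 for Scn2a, -0.30 to 0.16 for Cacna1a, -0.61 to 0.94 for Cacna1c and -0.57 to 0.087 for Cacna1d. Against sham, the high end for Cacna1a on both days was without replicate 2 of that day. The low end for Cacna1c at day 7 against sham was without day 7 replicate 3. At day 14 against day 7, its low end was without day 7 replicate 2 and its high end without day 7 replicate 3. Beside the mean instead of the median of the neuronal markers, Cacna1a at day 14 lay 0.36 above them instead of 0.30. With 3 libraries a group and a biological coefficient of variation of 0.432, intervals are wide.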
